A study of Mus musculus with 6 samples.

Results

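Nfkb1, Nfkb2, Rel, Rela and Relb, the 5 genes that encode the subunits of the transcription factor NF-kB, were followed in mouse lung ILC2s cultured with or without TNFa. They were found by gene symbol, with 1 row each, among the 21825 genes of the deposited count table. ILC2s (group 2 innate lymphoid cells) are lymphocytes of tissues that lack rearranged antigen receptors and secrete type 2 cytokines. The cells were sorted from lungs of BALB/c mice at an age of 6 weeks, after 3 intraperitoneal injections of recombinant IL-33, 1 µg each, so the controls had been exposed to this alarmin as well. Both groups were kept for 48 h with recombinant IL-2 and recombinant IL-7, each at 10 ng/mL, and differed in the addition of recombinant TNFa (40 ng/mL) or PBS. Each group had 3 libraries, numbered 1 to 3 for PBS and 4 to 6 for TNFa. The comparison asks how TNFa changes the transcripts of the factor through which it is known to signal.

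NF-kB acts as a dimer of these subunits, which share a Rel homology domain for DNA binding and pairing. Nfkb1 encodes p105, the precursor of p50, and Nfkb2 encodes p100, the precursor of p52; p50 and p52 lack a transactivation domain, which Rela (p65), Relb and Rel (c-Rel) carry. TNF family receptors reach the canonical arm, in which IkB inhibitors are degraded and dimers such as p50 with p65 enter the nucleus, and some of them the noncanonical arm, in which the kinase NIK drives the cutting of p100 and p52 with RelB is released. Textbook NF-kB target genes include Nfkb2, Relb, Rel and Nfkbia, and this is not a full list.

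Upstream sequences are shown for Nfkb2, which rose with TNFa, and for Rel and Rela, which did not pass the test. They are the 250 bases before the annotated start in the RefSeq promoter table (GRCm38.p6, the assembly also called mm10), read 5′ to 3′ along the gene; 3 of the 5 genes were found there. Capitals mark matches to the consensus kB motif, a pattern of 10 letters searched on both strands, with overlapping matches counted. The Nfkb2 window lies at chr19:46304487-46304736 on the plus strand, the Rel window at chr11:23770970-23771219 on the minus strand and the Rela window at chr19:5637291-5637540 on the plus strand. RefSeq starts can differ from other annotated starts. The Rela window runs past the start of the counted Rela gene, 5637483. In the GENCODE M21 annotation Nfkb2 starts at 46304320, ahead of its window.
Nfkb2: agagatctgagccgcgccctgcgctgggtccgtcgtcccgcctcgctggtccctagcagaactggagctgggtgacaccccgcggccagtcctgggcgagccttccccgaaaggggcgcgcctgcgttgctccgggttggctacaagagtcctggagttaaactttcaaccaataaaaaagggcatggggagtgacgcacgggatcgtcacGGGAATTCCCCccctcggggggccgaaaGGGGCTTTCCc
Rel: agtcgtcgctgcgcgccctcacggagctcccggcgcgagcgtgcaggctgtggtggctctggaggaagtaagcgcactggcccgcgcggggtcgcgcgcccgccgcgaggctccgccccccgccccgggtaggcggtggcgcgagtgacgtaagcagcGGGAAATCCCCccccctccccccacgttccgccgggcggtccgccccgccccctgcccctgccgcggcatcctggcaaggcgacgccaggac
Rela: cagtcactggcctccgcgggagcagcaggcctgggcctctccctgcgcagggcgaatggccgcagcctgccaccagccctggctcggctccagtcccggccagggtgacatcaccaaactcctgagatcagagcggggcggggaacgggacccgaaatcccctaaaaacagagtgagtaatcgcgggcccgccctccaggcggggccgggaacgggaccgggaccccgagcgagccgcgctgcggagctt
The Nfkb2 window held 3 matches, 2 of which overlap, and the Rel window 2 overlapping ones, while the Rela window had 0. A match was present in 7.25% of all 32851 windows of this length, and 2 or more in 1.03%. Nfkb2 has 2 further annotated starts, and each of their windows held 1 match. A match describes letters only.

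Counts assigned to genes summed to 29185442 to 30908757 per PBS library and 25089415 to 32487004 per TNFa library. TNFa replicate 5 stood apart, with a score of 90.4 on the first principal component (35.6% of the variance) against -22.6 to -14.5 for the others. One control library, PBS replicate 2, is labelled a repeat. No label tells whether the libraries are separate cultures or animals, and p-values thus measure only the spread between these libraries, which may be technical. All 11 ILC2 markers examined were measured in every library, led by Il5 and Il2ra, with Thy1 the lowest at 2.32 to 4.52 CPM (TMM-scaled counts relative to library size). Summed markers of mast cells and basophils, led by Tpsab1 and Cma1, reached 1113 to 1244 CPM with PBS and 1179 to 1318 with TNFa, those of macrophages and monocytes (Lyz2, Ly6c2) 28.0 to 51.1 and 28.4 to 40.3, and those of structural cells (Pecam1, Scgb1a1) 119 to 153 and 142 to 198. Eosinophil and neutrophil genes (Prg2, Epx) reached 21.3 and 54.9 CPM in TNFa replicates 4 and 5 and at most 5.72 elsewhere. Sums stayed at or below 4.99 CPM for B cells (Ms4a1, Cd79a), 6.32 for NK cells and ILC1 (Ncr1, Prf1) and 2.42 for erythroid cells (Hba-a1, Hbb-bs). Of the lists reported here, 2 had sums that differed between the groups without overlap. The 7 T cell genes, led by Cd3g and Cd3e, summed to 89.7 to 101 CPM with PBS and 76.6 to 86.2 with TNFa. The 6 dendritic cell genes, led by Ccr7 and Xcr1, summed to 122 to 131 and 156 to 174. Of these 6 genes, only Ccr7 and Cd74 had higher means with TNFa. The part of these cells in the subunit values was not tested, and in bulk RNA fewer cells of a type and less RNA per cell cannot be told apart.

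Nfkb2, the gene of the p52 precursor, was the subunit that rose. Its transcript stood at 55.3, 74.6 and 52.1 CPM in PBS replicates 1, 2 and 3, and at 146, 129.96 and 136 CPM in TNFa replicates 4, 5 and 6. Every TNFa library lay above every PBS library. The mean went from 60.7 ± 12.1 to 137 ± 8.19 CPM (SD, n = 3 each), a 2.26-fold rise with a 95% interval of 1.8 to 2.85. The log2 fold change was 1.18 ± 0.15 (SE), with an adjusted p of 0.032 by edgeR's quasi-likelihood F test, corrected by Benjamini-Hochberg over all 15719 tested genes. Ordered by p-value it was gene 7 of those tested. Of the 5 subunits 1 was called higher, against 0.0891% of all tested genes, and 0 were called lower, against 0.0127%. The call was kept without PBS replicate 2 or TNFa replicate 5 (edgeR adjusted p = 0.048 and 0.0061) and lost without PBS replicate 1, PBS replicate 3, TNFa replicate 4 or TNFa replicate 6 (0.37, 0.32, 0.16 and 0.11), with log2 fold changes between 1.08 and 1.35 throughout.

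Relb, whose product pairs with p52, had higher values with TNFa and missed the threshold over all genes. Its transcript was at 30.3, 40.7 and 27.5 CPM with PBS and at 66.6, 53.2 and 59.6 CPM with TNFa. The groups did not overlap. The log2 fold change was 0.87 ± 0.17 (1.82-fold, 95% interval 1.395 to 2.38; edgeR adjusted p = 0.15). Without TNFa replicate 5 edgeR gave an adjusted p of 0.045, and DESeq2 on all 6 libraries gave 0.00091. Relb passed in no other alternative: it was called in 1 of 6 fits without 1 library and 1 of 8 other settings or tools. Relb is abundant in dendritic cells, whose summed markers were also higher with TNFa: Ccr7 had means of 55.8 and 97.6 CPM, while Xcr1 had 37.5 and 24.5. Of the other listed markers, Cd74 had means of 22.8 and 32.3 CPM, H2-Aa 8.96 and 8.59, Itgax 2.72 and 1.90, and Flt3 at most 0.127 in any library. Only Ccr7 and Cd74 of these markers had higher means with TNFa. The part of dendritic cells in the Relb values was not tested.

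Nfkb1, the gene of the p50 precursor, had lower values with TNFa. It stood at 381, 349.5 and 381 CPM with PBS and at 230.4, 275 and 221 CPM with TNFa. All TNFa libraries lay below all PBS libraries, and TNFa replicate 5 came closest to the controls. The means were 370.4 ± 18.1 and 242 ± 28.8 CPM, and the log2 fold change was -0.61 ± 0.11 (95% interval -0.87 to -0.36; edgeR adjusted p = 0.11). It missed the threshold with 6 libraries and passed it without TNFa replicate 5 (edgeR adjusted p = 0.0061) and in DESeq2 on all libraries (adjusted p = 0.0006). Nfkb1 was thus called in 1 of 6 fits without 1 library and 1 of 8 other settings or tools. The summed T cell markers were lower with TNFa as well, at 89.7 to 101 CPM with PBS and 76.6 to 86.2 with TNFa. None of the T cell genes passed the test alone. Markers of ILC2s went both ways, and none of those named here passed. With PBS and TNFa, Gata3 had means of 978 and 705 CPM and Il1rl1 616 and 425. Il2ra had 1841 and 2228 and Il5 4520 and 5442. A link of the T cell or ILC2 markers to Nfkb1 was not tested.

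Rela encodes p65, the main transactivating partner of p50. It was at 139, 132 and 121 CPM with PBS and 134, 115 and 135 CPM with TNFa. The groups overlapped. Its log2 fold change was -0.03 ± 0.11 (edgeR adjusted p = 0.96), with a 95% interval from 0.823-fold to 1.16-fold. The sign was not stable: the log2 fold change was 0.0158 without PBS replicate 1 and 0.0374 without TNFa replicate 5.

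Rel, the c-Rel gene, had the widest spread. It was at 2.39, 8.33 and 10.5 CPM with PBS and at 10.1, 6.28 and 8.29 CPM with TNFa. The groups overlapped, and PBS replicate 1 was far below the other 5 libraries. That library had 70 counts for Rel (exact Poisson 95% interval 54.6 to 88.4, counting error only), against 168 to 333 elsewhere, so the gap exceeded counting error. The log2 fold change was 0.21 ± 0.46 (95% interval -0.82 to 1.24; edgeR adjusted p = 0.93), and without PBS replicate 1 it turned to -0.20. A change of Rel was not detectable in these libraries, whose interval runs from 0.568-fold to 2.36-fold.

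**Figure D1:**
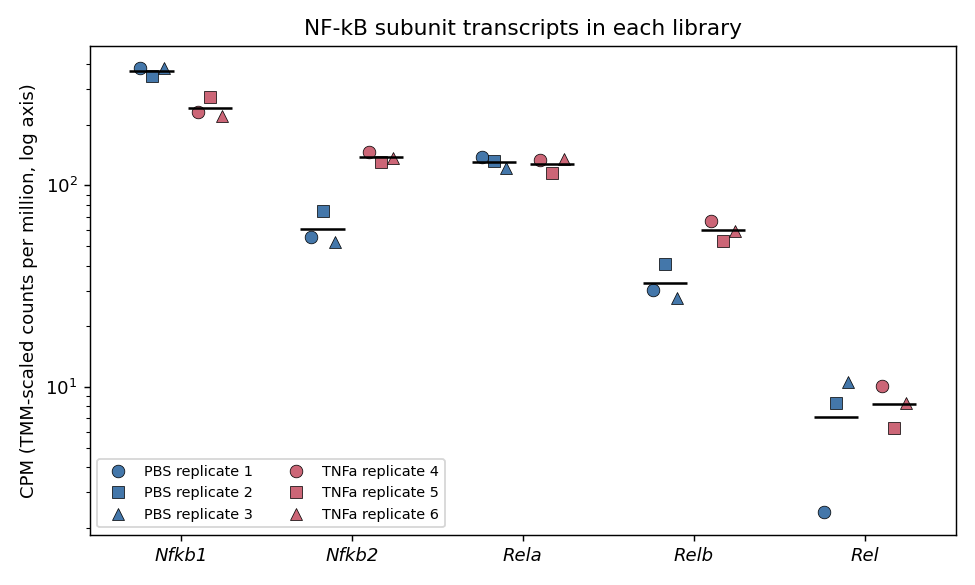
Each point is the level of a subunit transcript in 1 library, in TMM-scaled CPM on a log axis, with PBS in blue, TNFa in red and a black line at the group mean (n = 3). The groups are separate for Nfkb1, Nfkb2 and Relb and overlap for Rela and Rel, where PBS replicate 1 lies lowest at 2.39 CPM.

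Groups were separate with TNFa higher for 2 of the 5 subunits (Nfkb2 and Relb), against 6.85% of all tested genes, and with TNFa lower for 1 (Nfkb1), against 8.35%. The median log2 fold change over all tested genes was 0.00. The biological coefficient of variation fitted to each gene was 0.11 for Nfkb1, 0.11 for Rela, 0.14 for Nfkb2, 0.16 for Relb and 0.40 for Rel, against a median of 0.22.

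**Figure D2:**
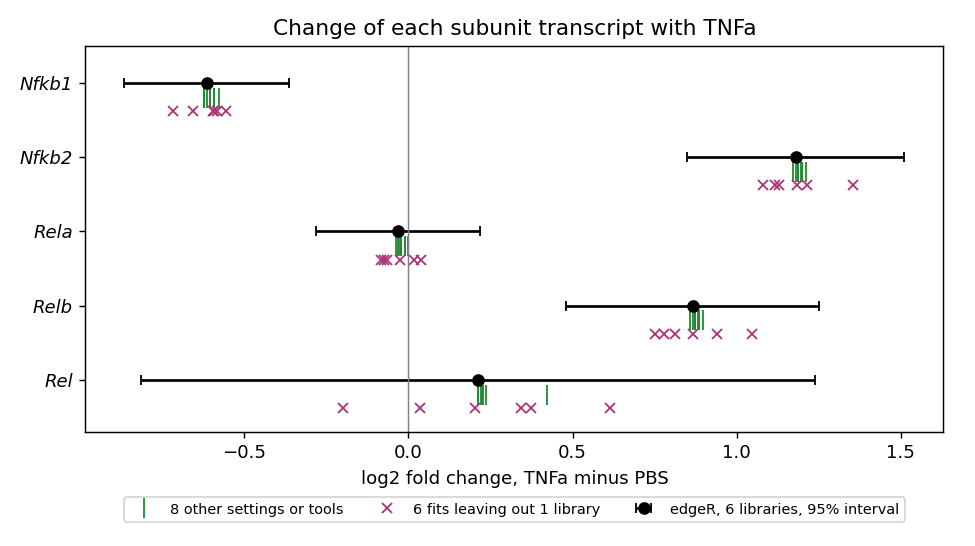
Black points and bars give the log2 fold change (TNFa minus PBS) of each subunit with its 95% interval from edgeR on 6 libraries; green ticks are 8 other settings or tools and purple crosses the 6 fits that each leave out 1 library. The bars of Nfkb1, Nfkb2 and Relb keep clear of 0, but of these 3 only Nfkb2 passed the test adjusted over all genes.

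Levels of different genes can be set side by side only per length. Per kilobase of merged exons (all exonic bases of a gene in GENCODE M21), the order was Rela, Nfkb1, Nfkb2, Relb, Rel in all 3 PBS libraries and Rela, Nfkb2, Nfkb1, Relb, Rel in all 3 TNFa libraries. Nfkb2 and Nfkb1 thus changed places, and in neither group did neighbours in the order overlap. In CPM per kilobase of merged exons, Rela stood at 42.6 ± 2.86 with PBS and 41.7 ± 3.62 with TNFa (SD, n = 3 each). On that scale Nfkb1 stood at 30.7 ± 1.502 and 20.1 ± 2.39, and Nfkb2 at 13.2 ± 2.65 and 29.98 ± 1.79. Relb stood at 8.45 ± 1.79 and 15.4 ± 1.73, and Rel at 0.949 ± 0.565 and 1.10 ± 0.255. The place of Nfkb1 depends on the length used, since its merged exons, which include annotated retained introns, span 12061 bases and its longest transcript 4149. Per kilobase of the longest transcript Nfkb1 came first in both groups, at 89.3 ± 4.37 and 58.3 ± 6.94, ahead of Rela at 48.1 ± 3.24 and 47.1 ± 4.10 and Nfkb2 at 15.8 ± 3.16 and 35.7 ± 2.13. Rel was last under both lengths. The GENCODE M21 span of Nfkb2, 46304320 to 46312385, is wider than that of its counted row, 46304737 to 46312090. The length used for Nfkb2 may thus exceed that of the counted gene model.

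The means of the precursor genes differed between groups in opposite directions. Nfkb1 and Nfkb2 together stood at 43.6, 45.2 and 43.0 CPM per kilobase of merged exons with PBS and at 51.0, 51.1 and 48.0 with TNFa. Per kilobase of the longest transcript, which gives Nfkb1 more weight, their sum was 106, 104 and 105.4 with PBS and 93.5, 100.01 and 88.6 with TNFa. The groups were separate under both lengths but in opposite directions, so the direction of this sum turns on the length used. The transactivating subunits Rel, Rela and Relb together stood at 53.3, 54.6 and 48.0 with PBS and 62.0, 52.0 and 60.5 with TNFa per kilobase of merged exons, and these groups overlapped.

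As shares of the summed level of all 5 genes (per kilobase of merged exons), Nfkb2 made up 13.7% ± 2.21 with PBS and 27.7% ± 0.465 with TNFa, and Nfkb1 32.1% ± 2.88 and 18.6% ± 3.00. Rela made up 44.4% ± 1.96 and 38.5% ± 2.12, Relb 8.77% ± 1.49 and 14.2% ± 0.952, and Rel 1.00% ± 0.620 and 1.01% ± 0.190. Per kilobase of the longest transcript the share of Nfkb2 was 9.60% ± 1.82 and 22.2% ± 0.981, that of Nfkb1 54.4% ± 3.35 and 36.3% ± 4.48, and that of Rela 29.3% ± 1.35 and 29.4% ± 2.54. Under both lengths the share of Nfkb2 was higher, and that of Nfkb1 lower, in every TNFa library than in every PBS library.

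**Figure D3:**
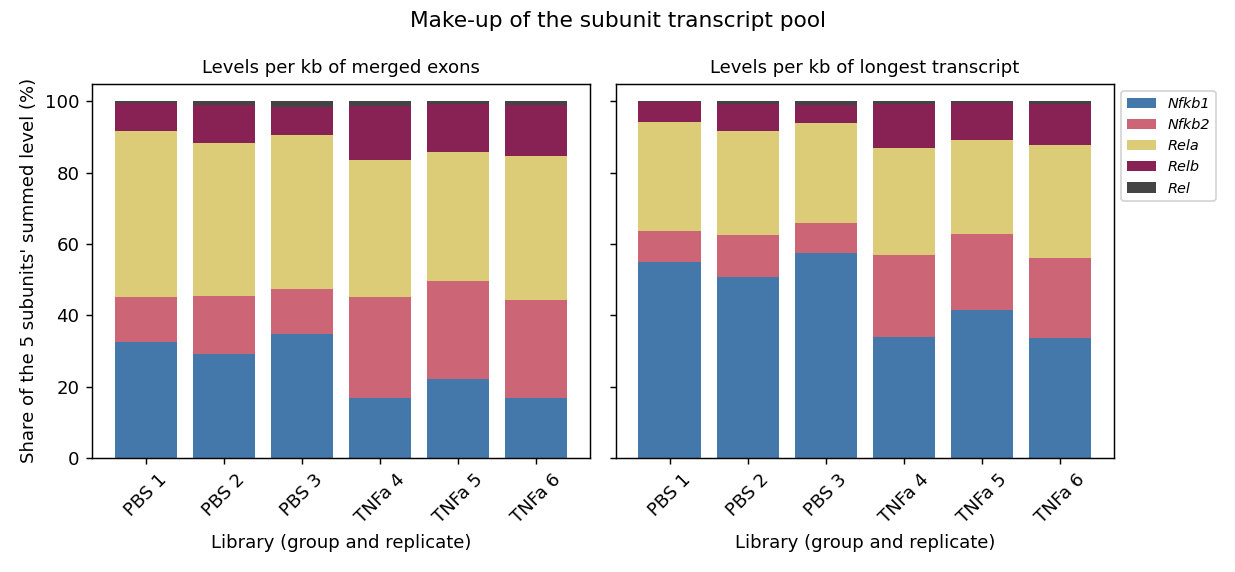
Stacked bars give each subunit's share (%) of the summed per-length level of the 5 genes in each library, per kilobase of merged exons on the left and of the longest transcript on the right. On the left the Nfkb2 share has a mean of 13.7% in PBS and 27.7% in TNFa, and the Nfkb1 share 32.1% and 18.6%.

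Ratios between subunits within a library do not depend on how libraries are scaled, and their change between groups does not depend on gene length. The groups were separate for the 6 pairs without Rel and overlapped for the 4 pairs with it. In those 4, PBS replicate 1 had the lowest ratio of Rel to its partner of all 6 libraries. For 3 libraries against 3 the smallest p of an exact permutation test is 0.1, and each of the 6 separate pairs reached it (two-sided exact permutation p = 0.1, or 0.17 after Benjamini-Hochberg adjustment over 10 pairs), so no pair could pass 0.05.

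The widest shift was between the precursors. The Nfkb2 to Nfkb1 ratio (levels per kilobase of merged exons) was 0.383, 0.561 and 0.360 with PBS and 1.67, 1.24 and 1.62 with TNFa. The lowest TNFa library was above the highest PBS library, and the ratio was 3.52-fold higher with TNFa (difference of mean log2 ratios 1.82, pooled SD 0.30, n = 3 each). Leaving out any 1 library gave 1.69 to 2.01. Per kilobase of the longest transcript the ratio was 0.157, 0.230 and 0.147 with PBS and 0.685, 0.510 and 0.665 with TNFa, so whether Nfkb2 exceeded Nfkb1 turns on the length used.

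Against Rela, Nfkb2 and Relb had higher ratios with TNFa and Nfkb1 lower ones. The Nfkb2 to Rela ratio per kilobase of merged exons was 0.267, 0.379 and 0.288 with PBS and 0.733, 0.756 and 0.675 with TNFa, a 2.34-fold difference. The Relb to Rela ratio was 0.173, 0.243 and 0.179 with PBS and 0.394, 0.365 and 0.349 with TNFa, a 1.88-fold difference. In both, PBS replicate 2 was the highest control. The Nfkb1 to Rela ratio was 0.698, 0.674 and 0.800 with PBS and 0.439, 0.608 and 0.416 with TNFa, with TNFa replicate 5 nearest to the controls. The ratio of Relb to Nfkb1 was 2.83-fold higher with TNFa.

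Relb and Nfkb2, whose products pair in the noncanonical arm, kept close to each other. The Relb to Nfkb2 ratio per kilobase of merged exons was 0.646, 0.643 and 0.622 with PBS and 0.537, 0.483 and 0.517 with TNFa. It had the smallest spread between replicates of the 10 ratios (pooled SD 0.06 on the log2 scale) and was lower in every TNFa library than in every PBS library (difference of mean log2 ratios -0.32). PBS replicate 2 had the most of both genes among the controls, 0.32 (Nfkb2) and 0.33 (Relb) above the group mean of log2 CPM, and TNFa replicate 5 the least of both among the treated libraries. The deviations of these genes from their group means had a Pearson r of 0.97 over the 6 libraries. It was -0.76 for Nfkb1 with Rela, -0.68 for Nfkb1 with Relb, -0.55 for Nfkb1 with Nfkb2 and 0.52 for Rela with Relb. These correlations are descriptions over 6 libraries that share their scaling and include TNFa replicate 5. Deviations from a group mean cancel out within the group, so the 6 values are not independent.

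**Figure D4:**
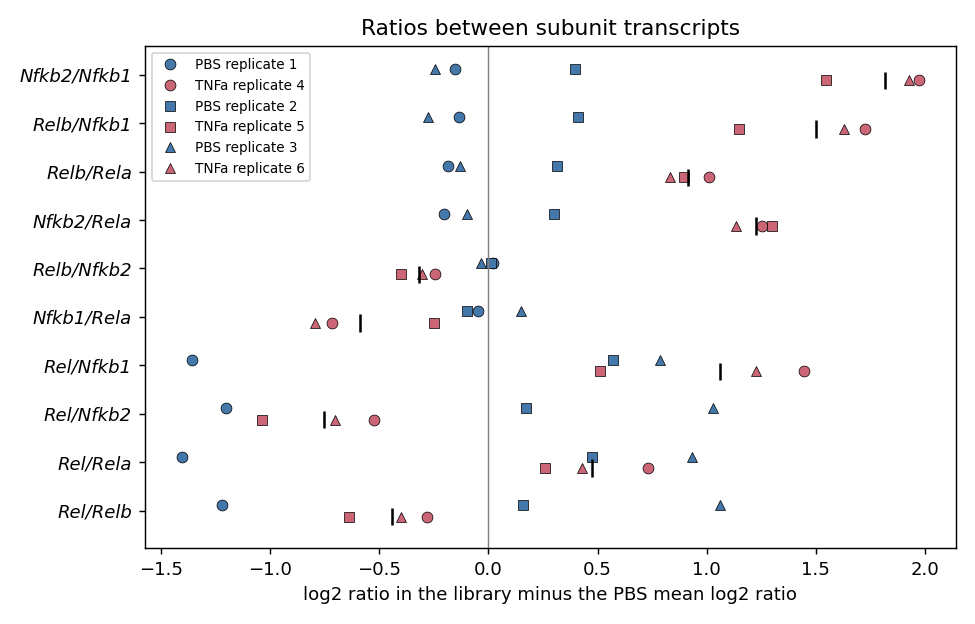
Each row is a ratio of 2 subunit transcripts and each point 1 library, drawn as its log2 ratio minus the PBS mean, with black ticks at the TNFa mean (n = 3 each). The 6 rows without Rel have separate groups, with the widest shift for Nfkb2/Nfkb1 at 1.82, and the 4 rows with Rel overlap.

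The genes whose pattern was most like each subunit were looked up among 8750 genes with a mean of at least 10 CPM, by Pearson r of log2 CPM over the 6 libraries. The difference between groups enters these values, and many genes score high: 29 genes were above 0.95 for Nfkb2 and 9 for Rel. For Nfkb2 the closest were Neurl3, a ubiquitin ligase gene, Rrad, a small GTPase gene, and Relb, each at r = 0.99. For Relb the closest were Ebi3, which encodes a chain of the cytokines IL-27 and IL-35 (r = 0.996), Nfkb2 and Rrad. Ebi3 stood at 11.2, 14.7 and 9.34 CPM with PBS and at 30.7, 22.1 and 25.02 CPM with TNFa (edgeR adjusted p = 0.13). Like Relb it was highest among the controls in PBS replicate 2 and lowest among the treated libraries in TNFa replicate 5. For Nfkb1 the closest were Tox, a transcription factor gene of lymphocyte development, Cmtm7 and the granzyme gene Gzma (r = 0.99 each); Gzma had means of 50.4 and 13.4 CPM (edgeR adjusted p = 0.088). For Rela they were Unc93b1, Qk and Cops8, all lowest among the treated libraries in TNFa replicate 5. For Rel they were Ralgapa1, Angel1 and Sik2, all lowest of the 6 libraries in PBS replicate 1.

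The partners of the subunits were examined as a list of 24 genes, all tested. They were chosen with earlier results of these data known, so the counts below are a description. Of these, 2 rose (Nfkbia and Birc3), 0 fell and 22 did not pass. Of all tested genes 0.0891% were called higher and 0.0127% lower. The partners' median log2 fold change was 0.19, beside 0.00 over all tested genes. Groups were separate with TNFa higher for 6 partners, against 6.85% of all tested genes, and with TNFa lower for 1 (Nfkbiz), against 8.35%.

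Among the classical inhibitors, which hold dimers in the cytoplasm, Nfkbia (IkBa) was at 109, 106 and 76.6 CPM with PBS and at 201, 239 and 191 CPM with TNFa. It rose 2.17-fold, with separate groups (edgeR adjusted p = 0.038). Nfkbie (IkBe) was at 20.9 ± 3.33 and 36.3 ± 11.4 CPM (edgeR adjusted p = 0.37) and Nfkbib (IkBb) at 60.9 ± 6.81 and 72.1 ± 4.19 (edgeR adjusted p = 0.67). Of the nuclear IkBs, which bind NF-kB dimers on DNA, 0 of 3 passed, and all 3 had log2 fold changes below 0. Bcl3, the partner of p50 and p52 homodimers, was at 144 ± 10.7 and 124 ± 13.4 CPM and Nfkbid at 19.4 ± 3.63 and 17.6 ± 2.27 CPM. Nfkbiz was at 35.2 ± 4.64 and 21.5 ± 4.88 CPM (edgeR adjusted p = 0.35).

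In the IKK complex, which phosphorylates IkBs, 0 of 3 genes passed. The log2 fold changes were 0.08 ± 0.18 for Chuk (IKKa), 0.00 ± 0.15 for Ikbkb (IKKb) and -0.20 ± 0.17 for Ikbkg (NEMO). Of the 5 genes of the switch that controls p100 cutting 1 passed. Birc3 (cIAP2), a ubiquitin ligase that keeps NIK low, was at 65.0, 54.9 and 68.7 CPM with PBS and 112, 110.5 and 130.002 CPM with TNFa. It rose 1.87-fold (edgeR adjusted p = 0.043). Like that of Nfkbia, this call was kept without TNFa replicate 5 and lost when any 1 of the other 5 libraries was left out (edgeR adjusted p = 0.18 to 0.37 for Birc3 and 0.11 to 0.35 for Nfkbia). The adaptors Traf2 and Traf3 had log2 fold changes of 0.23 ± 0.15 and 0.14 ± 0.13. Map3k14, the gene of NIK itself, named here after its values were seen, was at 15.7 ± 1.13 and 22.2 ± 1.84 CPM with separate groups and did not pass (edgeR adjusted p = 0.43).

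Of the 6 partners that p105 binds or that act as ligases on the precursors, 0 passed. Map3k8 (TPL2), the kinase that p105 holds inactive, and Tnip2 (ABIN-2), bound in the same complex, had log2 fold changes of 0.29 ± 0.22 and 0.28 ± 0.25. Of the 4 ubiquitin ligase genes, Fbxw11 stood at 70.6 ± 3.30 and 60.2 ± 19.4 CPM, Rnf123, which acts on p105, at 50.5 ± 3.32 and 45.9 ± 15.7 and Btrc at 17.4 ± 4.12 and 19.7 ± 1.89. Fbxw11 and Rnf123 were lowest in TNFa replicate 5. Of the 4 brakes on the pathway 0 passed. Tnfaip3 (A20), a ubiquitin-editing enzyme, had the largest log2 fold change of the 24, 1.21 ± 0.31, but its groups overlapped, at 17.04, 18.0 and 24.9 CPM with PBS and 59.3, 24.0 and 55.3 CPM with TNFa (edgeR adjusted p = 0.29). TNFa replicate 5 was far below the other treated libraries, and without it Tnfaip3 passed (edgeR adjusted p = 0.0055), as it did in DESeq2 on all 6 (0.0078). Cyld was at 112 ± 3.96 and 126 ± 21.03 CPM and Tnip1 at 50.2 ± 4.83 and 63.9 ± 0.798 CPM.

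**Figure D5:**
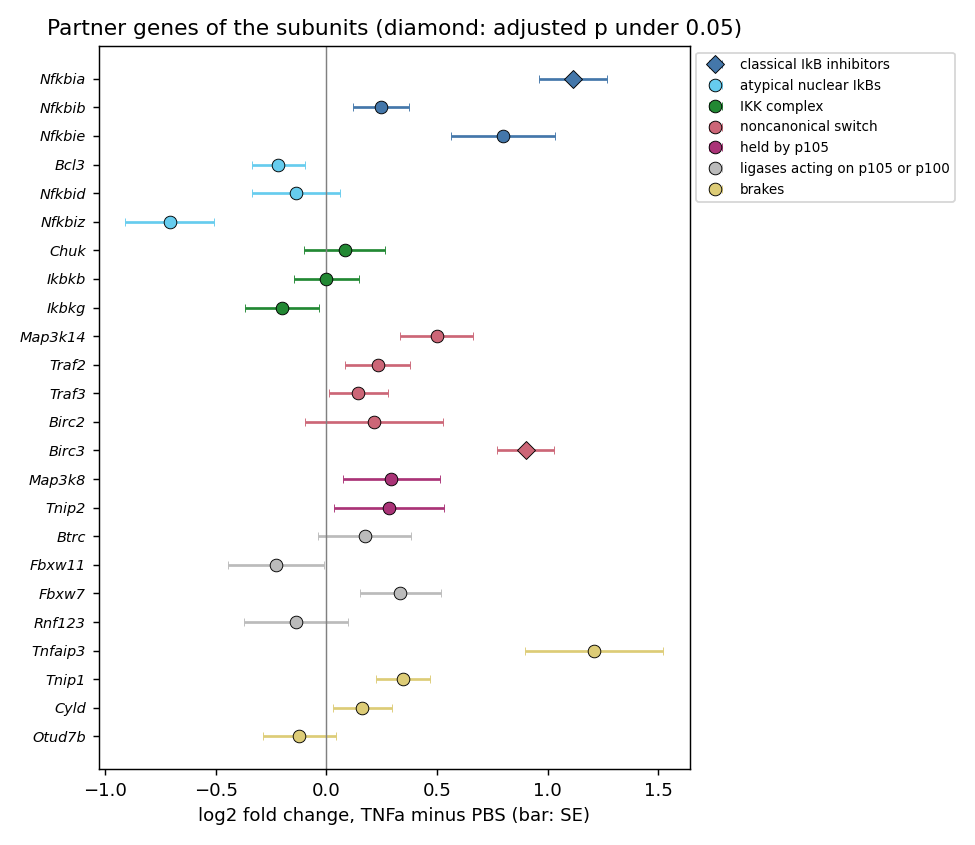
Points give the log2 fold change (TNFa minus PBS) of 24 partner genes with their SE, coloured by role, with diamonds for genes at an edgeR adjusted p under 0.05. The 2 diamonds are Nfkbia and Birc3, and the 3 nuclear IkBs lie to the left of 0.

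The subunit genes are protein coding and lie on 4 chromosomes. In mm10, 1-based, Nfkb1 spans 135584655 to 135691547 on chromosome 3 (minus strand), Relb 19606217 to 19629438 on chromosome 7 (minus), Rel 23736847 to 23770970 on chromosome 11 (minus), and Rela 5637483 to 5648130 and Nfkb2 46304737 to 46312090 on chromosome 19 (both plus). In GENCODE M21 Nfkb2 shares 299 exonic bases with Psd and 531 with the noncoding gene AC114539.1, both on the other strand. That annotation gives Nfkb2 a wider span, 46304320 to 46312385, than its counted row. Some of the shared bases may thus lie outside the counted gene. The sources used here do not give the strand setting of the counting, so reads from shared bases inside it cannot be told apart. Psd had 23 to 98 counts per library against 1624 to 4498 for Nfkb2. AC114539.1 was not found by symbol among the counted genes, so no such value can be given for it.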

How the data were processed

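RNA of sorted, cultured lung ILC2s was sequenced in 6 libraries, 3 with PBS and 3 with TNFa. The authors deposited estimated counts per gene, which Partek's expectation-maximization step assigned to gene models, per the file headers. Reads matching several genes are split, so values need not be whole; they were unscaled. CASAVA 1.8.2, STAR and mm10 also appear, per the submitters' processing notes. Annotation release, filters and strand setting: not given in the sources used here. There were 0 further value columns.

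Rounded counts went into edgeR 4.0.16 (R 4.3.3) with filterByExpr (minimum count 10, minimum total 15), TMM factors and the robust quasi-likelihood test of TNFa against PBS. Benjamini-Hochberg adjustment covered all 15719 genes kept, with a threshold of 0.05. SEs of log2 fold changes come from the F statistic. Alternatives were DESeq2 1.42.0, limma 3.58.1 (voom), other scaling factors and filters, and the omission of each library. For correlations, log2 CPM had a prior count of 2. Lengths came from GENCODE M21.

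The subunits, partners, marker lists and ratios were chosen with earlier results of these data known. Genes named are the 5 subunits, each partner past the threshold, up to 3 partners per role by mean CPM, the 3 genes most like each subunit and the 2 most abundant markers per cell type. Map3k14, Birc2, Thy1, Gata3, Il1rl1 and the remaining dendritic cell markers fall outside this rule and were named after their values were seen. The result of 1 marker list is not reported here.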

Additional observations from a re-analysis of the deposited data

How the results depend on the processing

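The 16 genes called over the whole table became 218 in DESeq2, 3 without a filter on low counts, 25 when only genes averaging 5 CPM or more were tested, and 1 to 67 when 1 library was left out, 67 being the fit without TNFa replicate 5. Nfkb2 missed the threshold without the filter (log2 fold change 1.17, edgeR adjusted p = 0.064), where more genes were tested. It was called in 7 of 8 other settings or tools and in 2 of 6 fits without 1 library, with log2 fold changes of 1.08 to 1.35 in the latter. DESeq2 also called Nfkb1 (-0.60) and Relb (0.87). Leaving out 1 library gave -0.72 to -0.55 for Nfkb1, 0.75 to 1.05 for Relb, -0.0836 to 0.0374 for Rela and -0.20 to 0.61 for Rel; edgeR called Nfkb1 and Relb in 1 of these 6 fits each, the one without TNFa replicate 5. The causes were not tested.

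In the order of levels, the longest transcript put Nfkb1 in place 1 and Rela in place 2 in both groups, and Nfkb2 in place 3 with TNFa. The mean coding transcript put Nfkb1 in place 1, Rela in place 2, Relb in place 3 and Nfkb2 in place 4 with PBS, and Nfkb1 in place 2 and Nfkb2 in place 3 with TNFa. Ratio changes moved by less than their spread under each alternative run, although without 1 library Rel/Rela (-0.23 to 0.94) and Rel/Relb (-1.05 to 0.09) changed sign. The same alternatives were run for the partners after the data were seen. The 2 partners called became 3 in DESeq2, 1 in limma-voom, 0 without the filter and 0 to 3 without 1 library; the 3 in DESeq2, and the 3 without TNFa replicate 5, include Tnfaip3. Ikbkb, at 0.00, had a positive log2 fold change in DESeq2 (0.00779), limma-voom (0.00188), with RLE (0.00780) or upper-quartile factors (0.0275), with genes averaging 5 CPM or more (0.0155) and with protein-coding genes only (0.0173). Without 1 library, partners that did not pass changed sign: Ikbkb (-0.11 to 0.11), Chuk (-0.0414 to 0.25), Birc2 (-0.00475 to 0.49), Btrc (-0.00596 to 0.32), Fbxw11 (-0.40 to 0.0130) and Rnf123 (-0.31 to 0.12). The summed level of Nfkb1 and Nfkb2, 0.19 higher with TNFa on the log2 scale per merged exons, was lower per longest transcript (-0.16) and per mean coding transcript (-0.20); these were added after the data were seen. No paired analysis was possible because the groups share no replicate numbers. Of the subunits Rel had the fewest counts, 70 to 333 per library.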
